A study of Mus musculus with 6 samples.

Results

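The genes described here are 10 neighbours of Alkbh1 on mouse chromosome 12: Snapc1, Rad51b, Plekhd1os, Plekhd1, Heatr4, Coq6, Rnf113a2, Ltbp2, Tmed8 and 4930473H19Rik. They were taken as every probe set whose platform gene symbol is exactly one of these names, which gave 12 of the 45037 probe sets that are not array controls. Each probe set pools several short probes that target the same transcript. The members were chosen by their measured differences between knockout and wild-type testes. Those differences are therefore given as a description without a test. Another 4 probe sets carry the name Ltbp2 only as an older synonym of the different gene Ltbp3 and were not counted.

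Whole testes of mice aged 12 weeks were compared between 3 Alkbh1 knockout animals (KO, labelled Alkbh1-/-) and 3 wild-type animals (WT). Every mouse gave 1 Affymetrix array of total RNA. The values are log2 expression as the authors deposited it, on which a step of 1 is a doubling. The source labels name the background of all mice C57/BL6, while the genotype field spells it C53/BL6. The sources used here do not give how the allele was made, which part of the gene it lacks, from which embryonic stem cells it came, or how often it was backcrossed. In whole testis, fewer cells of a type and less RNA per cell cannot be told apart.

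Genes that lie close to a targeted locus on the same chromosome are inherited with it through most meioses. A stretch of the donor cell's chromosome, with that strain's variants, can therefore stay around a targeted allele through backcrossing, and such linked genes are called passengers. A DNA variant carried along may alter a transcript's level. It may also lie under a microarray probe and alter the signal with no change in RNA. On expression arrays these cannot be told apart, and no genotypes were analysed here.

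The targeted gene was lower in every KO testis. Probe set 1434660_at of Alkbh1, a dioxygenase of the AlkB family, read 8.43, 8.65 and 8.72 log2 in WT replicates 1 to 3 and 5.76, 5.30 and 5.20 in KO replicates 1 to 3 (limma adjusted p = 0.000582). Its other probe set, 1438681_at, read 6.97, 6.82 and 7.16 in WT and 6.03, 5.78 and 6.10 in KO (adjusted p = 0.0697). Neither probe set had overlapping groups. Over all 27022 probe sets bright enough to be tested, 11 passed an adjusted p of 0.05 (0.0407%).

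The arrays were alike as a whole, with Pearson r from 0.989 to 0.996 across those probe sets, which are not independent. WT replicates 1 and 2 stood farthest apart, at -24.36 and 21.03 on the first principal component (40.8% of the variance), while the other 4 arrays lay between -6.85 and 6.87. Testis identity was plain from the levels of germ cell markers. Mean levels were 14.04 to 14.98 for the 6 haploid germ cell genes and 11.55 to 13.40 for the 5 spermatocyte genes. Those of the 3 liver genes were 5.02 to 6.83. All 6 haploid germ cell genes, 5 of 5 spermatocyte genes and 5 of 5 Sertoli cell genes were in the brighter 60% of probe sets. Some markers of other tissues passed that filter too, with 2 of 3 from liver (Alb did not), 2 of 4 from epididymis and both fat genes on the array. The mean level of the fat genes spanned 7.04 to 8.45 in WT and 7.66 to 9.25 in KO. Fabp4, a fatty acid binding protein gene, ranged from 5.77 in WT replicate 2 to 9.80 in KO replicate 2. Adipoq, the other fat gene measured, varied far less and read 8.31, 8.32 and 8.52 in WT and 8.47, 8.69 and 8.44 in KO. The part of fat in the members' differences was not tested.

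In chromosome order the members ran from Snapc1, at 13.4 Mb from Alkbh1, to 4930473H19Rik, at 0.99 Mb on its other side, a span of 14.5 Mb in the RefSeq assembly GRCm38.p6. All distances here are gaps between gene spans in that assembly. Toward the lower coordinates lay Rad51b at 7.58 Mb, Plekhd1os at 6.73 Mb, Plekhd1 at 6.70 Mb, Heatr4 at 3.44 Mb, Coq6 at 3.05 Mb, Rnf113a2 at 3.01 Mb, Ltbp2 at 2.55 Mb and Tmed8 at 0.228 Mb. Of the 10 genes, 8 had 1 probe set, while Rad51b and Tmed8 had 2 each. For each of these pairs the dimmer probe set fell under the level filter, which left 10 probe sets, 1 per gene.

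Of these 10 probe sets 7 were lower and 3 higher in KO, and the sizes of the differences ran from 0.14 to 0.79 log2. In all 10 the 3 KO values and the 3 WT values did not overlap, a trait of 11% of all tested probe sets (3.84% lower and 7.12% higher in KO). Their median difference was -0.36 log2, against 0.01 over all tested probe sets, and 8 of the 10 differed by more than 0.2, against 6.76% of all. These figures follow from how the members were picked and say nothing further about them. All 10 kept their direction when KO was set against WT replicate 3 alone, without the WT arrays that stood apart. With no overlap between the groups, this outcome was fixed in advance.

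**Figure D1:**
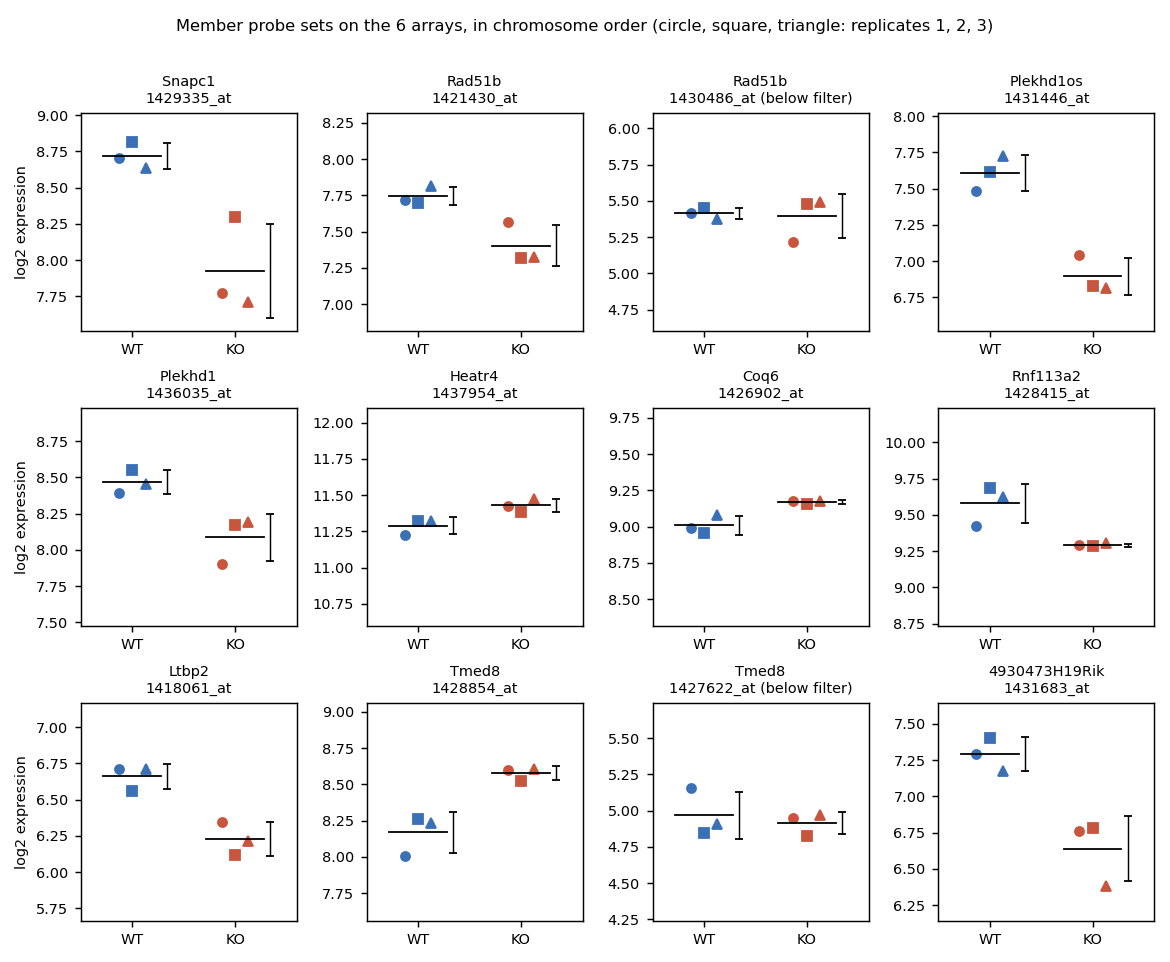
Log2 expression (vertical axis, 1.5 log2 units in every panel) of the 12 member probe sets in WT (blue) and KO (red), where each symbol is 1 array, the line is the mean and the bar is the SD of 3 arrays. The 10 probe sets above the level filter show separate groups, while 1430486_at and 1427622_at, below it, overlap.

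Snapc1 had the largest difference of the members. It encodes a subunit of SNAPc, the complex that binds the promoters of small nuclear RNA genes and recruits RNA polymerases to them. Probe set 1429335_at read 8.71, 8.81 and 8.64 log2 in the WT testes and 7.77, 8.30 and 7.71 in the KO testes. KO replicate 2 lay well above the other KO animals and still 0.34 below the lowest WT value. The means were 8.72 ± 0.09 in WT and 7.93 ± 0.32 in KO (SD, n = 3 each), a difference of -0.79 ± 0.15 (SE), or 1.73-fold lower in KO. The difference ran from -0.98 without KO replicate 2 to -0.68 without KO replicate 3.

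Plekhd1os and Plekhd1 are a pair of overlapping genes read in opposite directions. Plekhd1os is a long noncoding RNA, and Plekhd1 encodes a protein named for its pleckstrin homology domain and coiled coils. The noncoding gene starts inside Plekhd1 and runs out past the start of Plekhd1, so that the spans share 1352 bases. Plekhd1os (1431446_at) read 7.48, 7.61 and 7.73 in WT and 7.04, 6.83 and 6.81 in KO. The gap between the groups, 0.44 log2, was wider than the spread within either one (0.24 in WT and 0.23 in KO). Its means were 7.61 ± 0.12 and 6.90 ± 0.13 (SD, n = 3 each), a difference of -0.71 ± 0.10 (SE).

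Plekhd1 (1436035_at) differed in the same direction and by less. It read 8.39, 8.55 and 8.46 in WT and 7.90, 8.17 and 8.19 in KO, and the difference was -0.38 ± 0.09 (SE). KO replicate 1 held the lowest Plekhd1 value and the highest KO value of Plekhd1os, so the pair did not vary together among the KO animals. Where in the shared or unshared stretches the probes lie was not analysed here.

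The last member with a difference over 0.5 log2 was 4930473H19Rik, an uncharacterised long noncoding RNA and the only member on the far side of Alkbh1. Probe set 1431683_at read 7.29, 7.41 and 7.17 in WT and 6.76, 6.78 and 6.38 in KO. KO replicate 3 was the lowest, and the groups were 0.39 apart. Means were 7.29 ± 0.12 and 6.64 ± 0.23 (SD, n = 3 each), with a difference of -0.65 ± 0.12 (SE).

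The promoters of these 4 genes are shown because their transcripts had the largest differences or share a locus, and they let a reader see how unlike their start regions are. Each covers 250 bases before and 50 bases after the gene's start, 5′ to 3′, from RefSeq (GRCm38.p6), which holds a promoter for 9 of the 10 members. Capitals mark a CCAAT box (CCAAT), a GC box (GGGCGG) or an E-box (CACGTG) on either strand. The windows are chr12:73964247-73964546 on the plus strand for Snapc1, chr12:80693903-80694202 on the minus strand for Plekhd1os, chr12:80692351-80692650 on the plus strand for Plekhd1 and chr12:88442184-88442483 on the minus strand for 4930473H19Rik.
Snapc1: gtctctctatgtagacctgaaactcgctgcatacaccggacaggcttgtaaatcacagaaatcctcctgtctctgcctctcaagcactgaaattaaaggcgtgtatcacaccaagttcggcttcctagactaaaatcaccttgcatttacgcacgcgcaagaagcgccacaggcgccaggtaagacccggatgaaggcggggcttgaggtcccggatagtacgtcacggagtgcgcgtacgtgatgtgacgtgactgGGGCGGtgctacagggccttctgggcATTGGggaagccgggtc
Plekhd1os: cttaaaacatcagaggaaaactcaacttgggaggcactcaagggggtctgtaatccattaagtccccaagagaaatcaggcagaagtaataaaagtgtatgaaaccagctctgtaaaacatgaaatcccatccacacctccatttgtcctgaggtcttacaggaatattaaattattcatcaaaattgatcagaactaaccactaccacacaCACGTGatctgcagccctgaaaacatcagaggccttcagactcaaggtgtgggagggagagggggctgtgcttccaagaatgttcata
Plekhd1: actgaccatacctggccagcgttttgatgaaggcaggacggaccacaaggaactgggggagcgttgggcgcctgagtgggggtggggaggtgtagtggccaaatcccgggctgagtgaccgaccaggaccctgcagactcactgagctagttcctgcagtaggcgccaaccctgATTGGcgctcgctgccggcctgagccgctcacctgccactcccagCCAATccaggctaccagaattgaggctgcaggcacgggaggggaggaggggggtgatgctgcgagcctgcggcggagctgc
4930473H19Rik: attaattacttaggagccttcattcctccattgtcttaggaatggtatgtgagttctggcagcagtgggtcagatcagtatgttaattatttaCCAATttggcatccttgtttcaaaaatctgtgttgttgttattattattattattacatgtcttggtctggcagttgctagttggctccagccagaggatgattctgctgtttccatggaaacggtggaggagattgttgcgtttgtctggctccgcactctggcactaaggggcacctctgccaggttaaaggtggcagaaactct

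The 4 start regions had no motif in common. A CCAAT box was found once in Snapc1, in 2 places in Plekhd1 and once in 4930473H19Rik, and 37.4% of all 32851 promoters of this length hold one. A GC box was found in Snapc1 (35.7% of all promoters) and an E-box in Plekhd1os (7.15% of all). None of the 4 held a TATA box (TATAAA, 13.6% of all) or a full cAMP response element (TGACGTCA, 1.79% of all). Only the boxes of Plekhd1 and Snapc1 stand in CpG-rich sequence, with 15 and 20 CpG pairs per window, against 1 in Plekhd1os and 3 in 4930473H19Rik and a median of 7 over all promoters. These matches describe the reference sequence and not the alleles of these mice.

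Ltbp2 encodes a large matrix protein of elastic microfibrils, made mainly by connective tissue cells. It was the dimmest member above the filter. Probe set 1418061_at read 6.71, 6.56 and 6.71 in WT and 6.35, 6.12 and 6.22 in KO. All KO animals lay below all WT animals by at least 0.21 log2, and the difference was -0.43 ± 0.09 (SE). Markers of peritubular and stromal cells, which make matrix, were bright in all testes (8 of 8 above the filter). Of the 8, 6 were lower in KO with a median of -0.04, and their mean level spanned 9.18 to 9.49 in WT and 9.15 to 9.46 in KO. The part of this cell type in the Ltbp2 difference was not tested.

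Rad51b encodes a protein that acts in the repair of double strand breaks by homologous recombination. Probe set 1421430_at read 7.72, 7.70 and 7.81 in WT and 7.57, 7.32 and 7.32 in KO. KO replicate 1 came nearest to the WT range, from which it was 0.13 away. The difference was -0.34 ± 0.09 (SE). The second probe set, 1430486_at, read 5.41 ± 0.04 in WT and 5.40 ± 0.15 in KO (SD, n = 3 each), below the level filter, and its groups overlapped. The direction for Rad51b thus rests on a single probe set.

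Rnf113a2 encodes a RING finger and zinc finger protein, and its relatives in yeast and human are linked to the spliceosome. Probe set 1428415_at read 9.43, 9.69 and 9.62 in WT and 9.29, 9.28 and 9.30 in KO. The KO animals were nearly identical, within 0.02 log2, while the WT animals spread over 0.26, with replicate 1 lowest. The difference was -0.29 ± 0.08 (SE), and -0.36 without WT replicate 1.

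Tmed8 was the member nearest to Alkbh1 and the one with the largest difference upward. It encodes a protein with a Golgi dynamics domain and is named after the p24 family of cargo receptors. Probe set 1428854_at read 8.01, 8.26 and 8.24 in WT and 8.60, 8.52 and 8.61 in KO. The lowest KO value was 0.26 above the highest WT value. Means were 8.17 ± 0.14 and 8.58 ± 0.05 (SD, n = 3 each), a difference of 0.41 ± 0.08 (SE), or 1.33-fold higher in KO. Its other probe set, 1427622_at, read 4.97 ± 0.16 in WT and 4.92 ± 0.08 in KO, below the filter, and did not show the difference.

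Coq6 and Heatr4 had the smallest differences, both upward. Coq6 encodes a flavin-dependent hydroxylase of coenzyme Q synthesis in mitochondria. Probe set 1426902_at read 8.99, 8.96 and 9.08 in WT and 9.18, 9.15 and 9.18 in KO, a difference of 0.16 ± 0.06 (SE) with groups 0.08 apart. Against WT replicate 3 alone the Coq6 difference was 0.09, which is 0.566 times the full one.

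Heatr4, a gene of unclear function named for its HEAT repeats, was the brightest member. Probe set 1437954_at read 11.22, 11.32 and 11.32 in WT and 11.43, 11.39 and 11.47 in KO. The difference was 0.14 ± 0.05 (SE) and the groups were 0.06 apart, the narrowest gap among the members.

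Several members share their stretch of chromosome with another measured gene. In 2 of these 4 pairs both genes differed the same way by their means, and in 2 the surrounding gene stood near 0. Rnf113a2 lies wholly inside the span of Bbof1, a gene of ciliary basal bodies. Bbof1 (1438122_at) read 12.33, 12.50 and 12.47 in WT and 12.43, 12.46 and 12.56 in KO, with overlapping groups and a difference of 0.05 ± 0.06 (SE). Likewise 4930473H19Rik lies wholly inside Adck1, which encodes a mitochondrial protein of a kinase-like family. Adck1 (1423762_at) read 8.34, 8.24 and 8.38 in WT and 8.35, 8.35 and 8.36 in KO, a difference of 0.03 ± 0.06 (SE). In both loci the nested gene read lower in KO and the surrounding gene gave overlapping groups.

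Heatr4 surrounds Riox1, which encodes a histone demethylase and ribosomal oxygenase. Riox1 (1448413_at) differed by 0.13 ± 0.09 (SE), close to the 0.14 of Heatr4, but its groups overlapped because WT replicate 1 read 7.87, above every KO value. Plekhd1os and Plekhd1 were the only overlapping pair in which both genes were members.

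**Figure D2:**
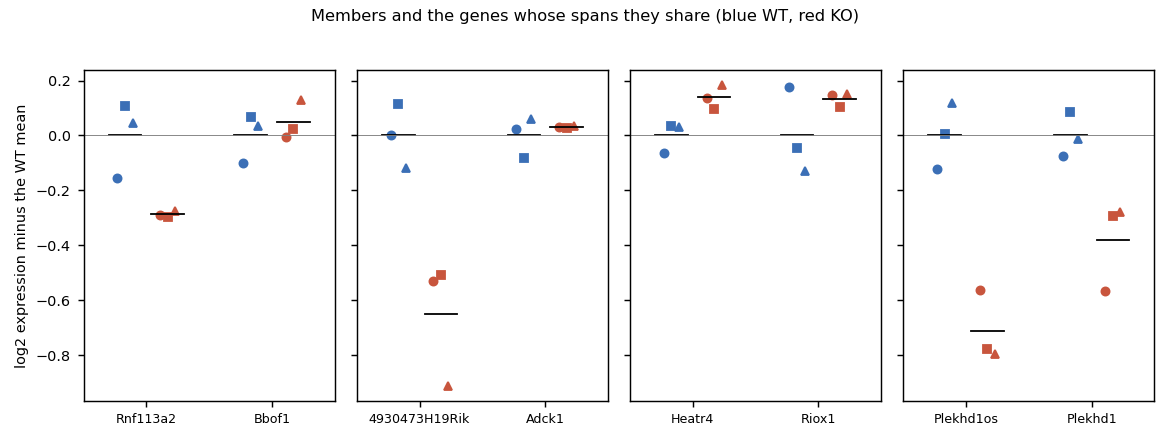
Log2 expression minus the gene's own WT mean (vertical axis) for members and for measured genes whose spans they share, with 3 WT arrays (blue) and 3 KO arrays (red), symbols as replicates 1, 2 and 3, and lines at the group means. Rnf113a2 and 4930473H19Rik sit below 0 in KO, while Bbof1 and Adck1 stay around 0.

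The nearest measured genes on each side of Alkbh1 were not members and differed little. Sptlc2, which encodes a subunit of the enzyme that starts sphingolipid synthesis, stood at -0.00 ± 0.07 (SE) 39.7 kb away. Nrp, whose span overlaps that of Alkbh1 by 992 bases, stood at 0.07 ± 0.08. Between Tmed8 and Alkbh1 lay 4 measured genes with differences from -0.06 to 0.02, and between Alkbh1 and 4930473H19Rik lay 5 with differences from -0.05 to 0.07. Genes with small differences thus lay between the targeted gene and the nearest member on each side. The members were picked for their differences, so small ones among the genes left over follow in part from that choice.

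Most non-members along the whole stretch likewise differed little. Between Snapc1 and 4930473H19Rik lay 114 further measured genes, each represented by its brightest probe set, with a median difference of 0.03. Of these, 3 differed by more than 0.2 (2.63%, against 6.18% of all genes), which are named here after their values were seen. They were Syne2, encoding a nuclear envelope spectrin-repeat protein (0.44 ± 0.13, SE), Max, the dimerisation partner of MYC (0.21 ± 0.19), and the kinase gene Map3k9 (0.21 ± 0.08). Values of Max overlapped between groups, and those of Syne2 and Map3k9 did not. The low share beyond 0.2 also follows in part from the choice of members.

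Of 18 measured non-members directly beside a member, 2 had groups that did not overlap, against 12.2% of all genes. They were Numb, an inhibitor of Notch signalling beside Heatr4 (0.12 ± 0.06, SE, against 0.14 for Heatr4), and Hif1a beside Snapc1. Next to Tmed8, Gstz1 at 1.52 kb stood at 0.05 ± 0.07 (SE) and Noxred1 at -0.06 ± 0.14. Next to Ltbp2, Isca2 stood at 0.05 ± 0.09 and Arel1 at 0.04 ± 0.06. Next to Plekhd1os, the zinc transporter gene Slc39a9 stood at 0.01 ± 0.06 at a distance of 3.03 kb, and beyond Plekhd1 came Susd6 at 0.08 ± 0.09. Zfyve26, 0.958 kb from Rad51b, stood at 0.07 ± 0.10 and 9430078K24Rik, on the other side of Rad51b, at -0.11 ± 0.08. Entpd5, 0.078 kb from Coq6, stood at -0.01 ± 0.06 and Zfp410 at -0.02 ± 0.05. Aldh6a1, beside Rnf113a2, stood at 0.05 ± 0.08. The genes on either side of 4930473H19Rik, 3200001D21Rik and Nrxn3, stood at -0.02 ± 0.18 and -0.03 ± 0.06.

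Beside Snapc1, 1700086L19Rik stood at 0.11 ± 0.10 (SE). On its other side, at 16.9 kb, lies the gene of the oxygen-regulated transcription factor Hif1a, whose brightest probe set 1427418_a_at stood at -0.16 ± 0.06 (SE). Another Hif1a probe set, 1416035_at, read 7.38, 7.57 and 7.39 in WT and 6.77, 6.94 and 6.84 in KO, a difference of -0.60 ± 0.08. The third tested one, 1448183_a_at, stood at 0.12 ± 0.18 with overlapping groups. Beyond Snapc1, up to 20 Mb from Alkbh1, 7 of 45 measured genes differed by more than 0.2, 5 lower and 2 higher in KO. Such differences were seen in 6.18% of all genes and in 7.41% of chromosome 12 genes farther than 20 Mb from Alkbh1. The largest differences downward were those of Tomm20l (-0.78 ± 0.24) and Trmt5, a tRNA methyltransferase gene (-0.47 ± 0.13). The higher ones were Klhdc1 (0.27 ± 0.07) and Lrrc9 (0.25 ± 0.08), and all 4 are named after their values were seen.

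**Figure D3:**
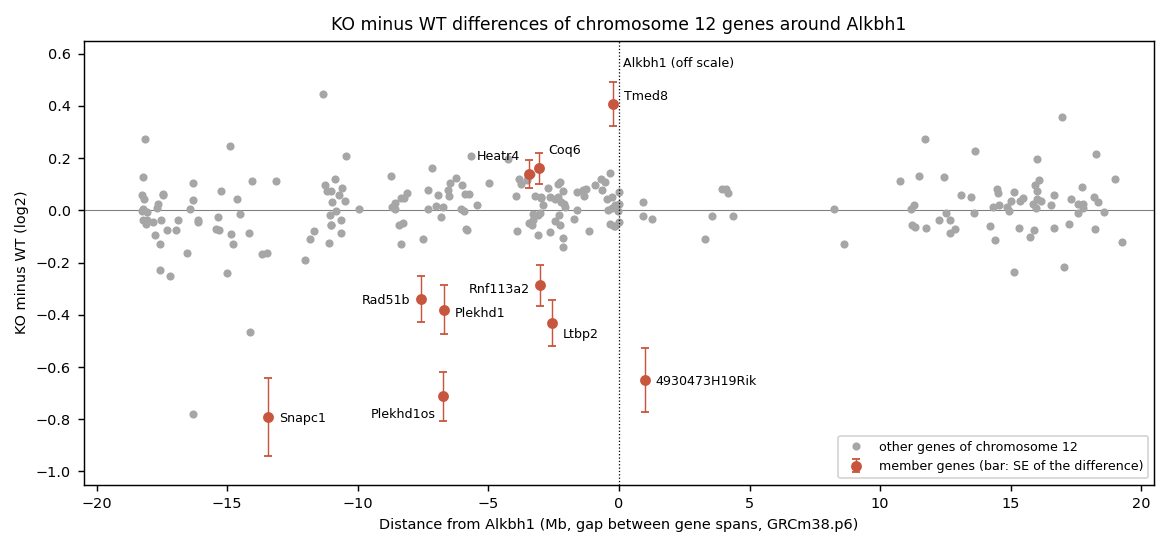
KO minus WT difference (log2, vertical axis) of chromosome 12 genes within 20 Mb of Alkbh1 against their distance from it, with members in red (bar, SE) and other genes in grey, each by its brightest tested probe set. Most grey points lie near 0 between the members, and Alkbh1 itself, at -3.18, is off the scale.

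Within 10 Mb of Alkbh1 112 genes were measured besides Alkbh1, 9 of them members. With the members included, 8 of the 112 (7.14%) differed by more than 0.2 log2, against 6.18% of all 13897 genes, a share near that background. The share was 10.0% of 240 genes within 20 Mb and 7.41% of 243 genes of chromosome 12 farther out. Lower in KO were 41 of the 112 genes (36.6%), against 44.1% of all genes, and their median difference was 0.02. That median was -0.0017, with 57 genes lower, when WT replicate 1 was left out. Groups without overlap were seen for 19 of the 112 (17.0%), against 12.2% of all genes. With the members left out they were seen for 10 of 103 (9.71%). The members were picked for their differences, so neither share is a result about the stretch.

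The non-members within 10 Mb reached from -0.14 to 0.21. At the lower end were Zc2hc1c (-0.14 ± 0.08, SE), 1700019M22Rik (-0.13 ± 0.09) and Pigh, a gene of glycosylphosphatidylinositol anchor synthesis (-0.13 ± 0.08). At the upper end, beside Map3k9, were Rgs6, a regulator of G protein signalling (0.20 ± 0.09), and Actn1, which encodes an alpha-actinin (0.16 ± 0.09). The other tested probe sets of Zc2hc1c stood at -0.19 and -0.21, and that of Actn1 at 0.02. Since the members were taken out for their differences, this narrow range follows in part from the choice of members.

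Genes that work with the members or resemble them were compared next. The choice of members did not use the values of those on other chromosomes. Tmed10 and a few others lie on chromosome 12, and the lists were made with earlier results of these data known. The 5 lists held 43 genes, of which 34 were measured above the filter, 17 lower and 17 higher in KO with a median of -0.0019. None of the 34 passed (limma adjusted over all probe sets, 0 genes, with 4 at an unadjusted p under 0.05). Only 0.0407% of all tested probe sets passed, so 0 of 34 says little about these genes. The share of all probe sets under the unadjusted p is not given here.

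For Snapc1, the 5 measured genes among the other SNAPc subunits and polymerase partners stood between -0.03 and 0.06, with 2 lower and 3 higher. The smallest p was that of Snapc4, the largest subunit of SNAPc (0.06 ± 0.08, limma adjusted p = 0.993). For Coq6, 11 measured genes of coenzyme Q synthesis stood between -0.17 and 0.07, with 5 lower and 6 higher. Coq3, a methyltransferase of that pathway, had the smallest p (-0.17 ± 0.07, limma adjusted p = 0.952), and its other probe set stood at -0.16. The direction of Coq3 was opposite to that of Coq6 itself.

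For Tmed8, 7 measured genes of the p24 family gave 4 lower and 3 higher. Tmed6 read 9.60, 9.98 and 9.58 in WT and 8.81, 9.66 and 9.16 in KO, a difference of -0.51 ± 0.21 with overlapping groups (limma adjusted p = 0.961). Tmed10, which lies on chromosome 12 as Tmed8 does, stood at 0.01 ± 0.05.

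For Ltbp2, 10 measured genes of latent TGF-beta binding proteins, microfibrils and TGF-beta ligands gave 5 lower and 5 higher, with a median of 0.00. Mfap5, which encodes another microfibril protein, had the smallest p of all 34 genes. Its brighter probe set read 8.55, 8.52 and 8.64 in WT and 8.08, 8.04 and 7.15 in KO, a difference of -0.81 ± 0.23 that did not pass (limma adjusted p = 0.863). The dimmer one stood at -0.33 ± 0.10. The next relatives of Ltbp2 itself stood at -0.07 ± 0.07 for Ltbp1, -0.01 ± 0.12 for Ltbp3 and 0.10 ± 0.13 for Ltbp4.

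Rnf113a1 is the X-linked relative of Rnf113a2. It read 7.42, 7.47 and 7.47 in WT and 7.26, 7.38 and 7.08 in KO, without overlap, a difference of -0.21 ± 0.09 (limma adjusted p = 0.957). The direction was that of Rnf113a2 (-0.29 ± 0.08).

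**Figure D4:**
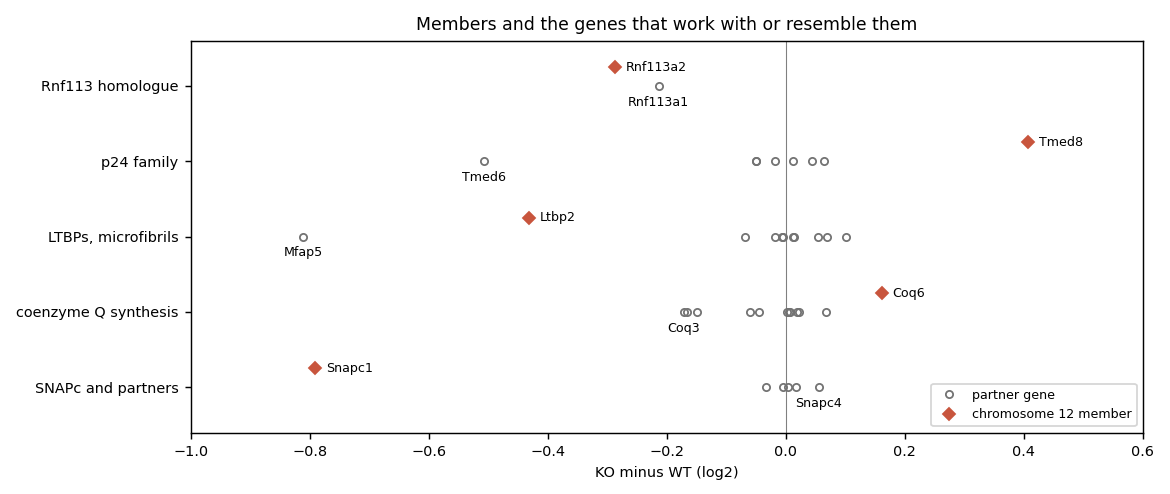
KO minus WT difference (log2, horizontal axis) of 5 members (red diamonds) and of the measured genes in the list that belongs to each (open circles), with the gene of smallest p named in every list. Most circles lie near 0, with Mfap5 (-0.81) and Tmed6 (-0.51) farthest out. The members were picked for their differences, and the lists were made with earlier results of these data known.

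Across the 6 arrays the tested genes most like Snapc1 lay on other chromosomes. The highest Pearson r was 0.980 for Coq3 on chromosome 4, followed by 0.976 for the serine protease gene Prss44 on chromosome 9 and 0.975 for the sortilin-family receptor gene Sorcs2 on chromosome 5. Coq3 read 8.96, 8.97 and 8.90 in WT and 8.71, 8.89 and 8.73 in KO, so that KO replicate 2 stood above the other KO animals as it did for Snapc1. Sorcs2 read 7.13, 7.20 and 7.15 in WT and 6.90, 7.11 and 6.88 in KO. Picked as the highest of all tested genes over 6 arrays, these are a description only.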

How the data were processed

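Testis RNA of 3 WT and 3 KO mice was measured on 6 Affymetrix arrays. The authors deposited 1 table of log2 expression values for 45101 probe sets. That they are log2 follows from their range (2.61 to 15.00), and array medians lay between 6.62 and 6.64. Per the submitters' processing notes the software was GCOS 1.4. The sources used here do not give the background correction, probe summary or normalization. If arrays were equalised, a shift of all transcripts together could not be seen. The number of arrays limits the precision (median SE 0.08 log2), and detection calls were not used.

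After removal of 64 array controls, the brighter 60% by mean over all arrays (27022, lowest mean 6.02) were tested by limma 3.58.1 in R 4.3.3 (lmFit, eBayes with intensity trend, two-sided, Benjamini-Hochberg over all 27022, threshold 0.05). The pipeline was tested on simulated data. SEs are limma's. Gene names came from the platform annotation, updated by gene id to RefSeq, GRCm38.p6 (1 gene for 34945 probe sets, of which 99.4% matched, more than 1 for 932, no gene for 9160). The assembly also gave gene order and distances. A gene's brightest probe set stood for it in counts over genes. Samples were grouped by genotype in their titles, which give biological replicates.

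Named by rule were all members and Alkbh1, their measured neighbours, the 3 non-members within 10 Mb with the largest differences each way, the partner gene of smallest p per list, and the 3 genes most like the member with the largest difference. Outside this rule fall Syne2, Max, Tomm20l, Trmt5, Klhdc1, Lrrc9, Tmed10, Ltbp1, Ltbp3, Ltbp4 and the marker genes Alb, Adipoq and Fabp4. These were named after their values were seen. Adck1 also falls outside it and was named because its span is shared with 4930473H19Rik. Members and lists were chosen with earlier results of these data known. The list of partner genes for Rad51b is not reported here. Same-numbered replicates were not taken as pairs, since correlations of their deviations from the group means were 0.22, -0.02 and 0.10 and the labels name no shared batch. Alternatives covered normalization, filter, moderation, replicate block, arrays left out, the window and the probe set of a gene. Figures were drawn with matplotlib 3.10.9.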

Additional observations from a re-analysis of the deposited data

How the results depend on the processing

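The differences of the 10 tested member probe sets and of both Alkbh1 probe sets kept their sign under every alternative run (13 each, 156 values), and 2 of these moved by more than the replicate SD. These were Coq6 (0.09) and the dimmer Alkbh1 probe set (-1.19), when only WT replicate 3 was kept (without WT replicates 1 and 2), a fit that assumes this lone array to vary like the KO group. Most of the alternative runs could not have turned a sign. Groups that do not overlap keep their sign when arrays are left out, and filter, moderation and block leave a difference as it is. Only the normalization runs could have done so. The counts of 7 lower, 3 higher and 10 without overlap changed only with the filter, which was largely fixed for the same reason. Keeping the upper 40% left 4 lower and a median member difference of -0.29, as fewer members were tested, and no filter gave a median of -0.31. With single arrays left out the median member difference ran from -0.39 to -0.34. The median of the genes within 10 Mb of Alkbh1, 0.02, ran from -0.0017 (without WT replicate 1) to 0.033 (without WT replicate 3) when single arrays were left out and was -0.0072 without WT replicates 1 and 2, so its sign rests on WT replicate 1. Of 27022 probe sets 11 passed, against 7 with the upper 40%, 2 to 12 with single arrays left out (lowest, 2, when KO replicate 3 was dropped, then 4 for WT replicate 3 and 6 for KO replicate 1) and 2 without WT replicates 1 and 2. The partner genes gave 0 past the threshold in every alternative run. With the replicate number as a block (replicate block) 9 probe sets passed. The member differences cannot change in that fit, as each number holds 1 WT and 1 KO array. Of the arrays, 2 of 3 WT and 1 of 3 KO correlated best with their own number, a hint from the data and not the design. The causes were not tested beyond the smaller sets named. Whether dim probe sets, near the lower end of the log2 scale, can show small differences was not tested.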
